A study of Homo sapiens with 6 samples.

Results

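The enzymes that make, activate and break down androgens were followed in LNCaP cells, an established line of human prostate adenocarcinoma cells that respond to androgen. The set was defined by gene symbol and names 10 genes: SRD5A1, SRD5A2, SRD5A3, HSD3B1, HSD3B2, HSD17B3, HSD17B6, HSD17B11, AKR1C3 and STS. Of these, 8 had a probe set listed with that symbol alone, which gave 18 probe sets among 45253 and 8 genes among 18239. HSD17B6 was listed only on a probe set shared with RDH16, and SRD5A3 was not analysed here. The treated cells were kept for 24 h with 40 µM urolithin A, which gut microbes form out of dietary ellagitannins, and the controls were called untreated in the titles and given saline in the treatment protocol. Each group had 3 Affymetrix U219 arrays of total RNA from cells in F12 medium with fetal bovine serum. The labels do not say whether replicates were separate cultures, and the p-values therefore cover array-to-array spread alone, which can be technical.

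Androgen synthesis in the prostate starts largely from adrenal precursors. Steroid sulfatase (STS) frees dehydroepiandrosterone from its sulfate, the HSD3B enzymes turn it into androstenedione, AKR1C3 and HSD17B3 reduce androstenedione to testosterone, and the SRD5A reductases turn testosterone into dihydrotestosterone, the most potent natural androgen. HSD17B6 can return a spent androgen to dihydrotestosterone, and HSD17B11 oxidises androgens at the position that AKR1C3 reduces. In prostate cancer, AKR1C3, HSD3B1 and SRD5A1 are known as routes by which tumours keep making androgen when the testes no longer do.

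Values below are on the log2 scale and centred, probe set by probe set, on the median of the control arrays. Differences between arrays can be read, but levels cannot, so the data do not say which of these enzymes LNCaP cells expressed at all, nor could the cell line be checked by the level of its markers. Among 8 measured markers of prostate luminal cells, 3 (KLK2, KLK3 and TMPRSS2) were lower and 1 (FOLH1) was higher after urolithin A. The summed value of 5 markers of immune cells ran between -0.31 and 4.17 on the urolithin A arrays and between -0.18 and 1.28 on the control arrays. HLA-DRA, the highest of them, was at -0.02, 1.17 and 3.09 in urolithin A replicates 1, 2 and 3 and at 1.01, 0.03 and -0.02 in control replicates 1, 2 and 3. In urolithin A replicate 3, CD74 and PTPRC were at 0.91 and 0.40, while CD14 and CD3E were at -0.18 and -0.05. In control replicate 1, CD74, PTPRC and CD3E were at 0.18, 0.12 and 0.06, and CD14 was at -0.08. The sums of urolithin A replicate 3 and control replicate 1 thus rest mostly on HLA-DRA. In urolithin A replicate 2, whose sum was 2.23, all 5 markers were above 0. There PTPRC, CD74, CD14 and CD3E were at 0.41, 0.28, 0.28 and 0.09 beside HLA-DRA at 1.17. The source of HLA-DRA and of the other immune markers was not tested. None of the 5 immune markers passed the test. Results that rest on the arrays of raised HLA-DRA (urolithin A replicates 2 and 3 and control replicate 1) are given with and without them.

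AKR1C3 was the only steroid enzyme of the 8 that passed the test, and it rose. As the mean of its 2 probe sets, AKR1C3 stood at 0.26, 0.56 and 0.39 on the urolithin A arrays and at -0.11, -0.01 and 0.15 on the control arrays. All 3 urolithin A arrays lay above all 3 controls. The log2 change was 0.39 (SE 0.10, limma adjusted p = 0.0406 over 18239 genes), a rise of 1.31-fold with a 95% interval between 0.17 and 0.62 on the log2 scale. In total RNA of a culture, more RNA per cell and more cells that carry it cannot be told apart. The exact permutation test over arrays gave p = 0.1 (two-sided), the smallest that 3 arrays against 3 allow. The call was narrow: it was lost without urolithin A replicate 2 (log2 change 0.32, adjusted p = 0.116), urolithin A replicate 3 (adjusted p = 0.0897) or either of control replicates 1 and 2 (adjusted p = 0.127 and 0.115).

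With 1 of 8 genes called, the set stood close to the array as a whole, where 10.2% of genes were called, 4.85% higher and 5.31% lower. The groups did not overlap in 1 of the 8 genes, against 29.3% of all genes. The median log2 change over the 8 genes was 0.03 and that over all genes 0.01.

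**Figure D1:**
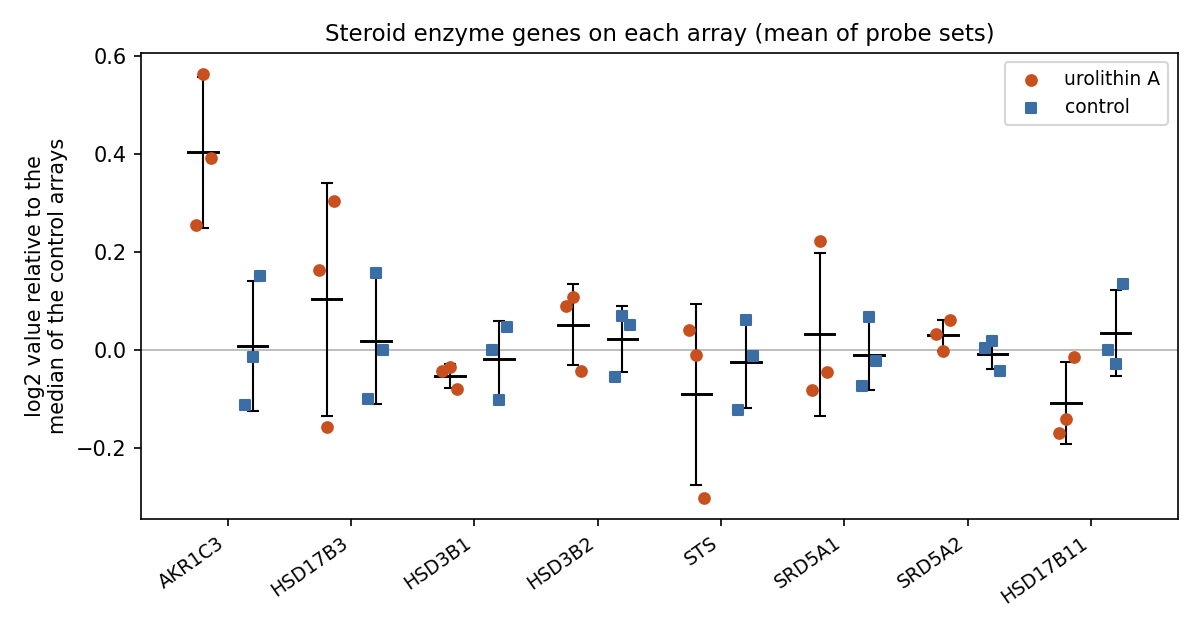
Mean of the probe sets of each steroid enzyme gene on every array, as centred log2 value (vertical axis), with urolithin A arrays as circles and control arrays as squares; horizontal bars are group means and whiskers SD (n = 3 each). AKR1C3 is the gene whose urolithin A arrays, at 0.26 to 0.56, all lie above its controls; the groups overlap in the other 7 genes.

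The rise of AKR1C3 came from 1 of its 2 probe sets. The probe set that rose read 0.55, 1.11 and 0.90 on the urolithin A arrays and -0.22, 0.00 and 0.23 on the control arrays. Its log2 change was 0.85 (SE 0.16, limma adjusted p = 0.0146 over 45253 probe sets), or 1.80-fold, and 300 probe sets had a log2 change at least as high. It was the only probe set called among the 18, against 8.51% of all probe sets (4.06% higher and 4.44% lower), and the only one of the 18 whose groups did not overlap, against 28.1% of all. Without control replicate 1 or control replicate 2 the change was 0.74 or 0.85 and the adjusted p lay just above the threshold (up to 0.0517). The other AKR1C3 probe set read -0.04, 0.02 and -0.12 on the urolithin A arrays and 0.00, -0.03 and 0.07 on the control arrays, where the groups overlap (log2 change -0.06, SE 0.08, adjusted p = 0.737). The gap between the probe sets was 0.59, 1.09 and 1.02 on the urolithin A arrays and -0.22, 0.03 and 0.16 on the control arrays. That gap did not overlap between the groups (mean difference 0.91). It repeats the separation of the probe set that rose, since the other varied little, and is no separate test. The gene mean of 0.39 lies between the 2 probe sets.

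Urolithin A replicate 1, whose HLA-DRA was at -0.02, also read above every control on the probe set that rose. Set against control replicates 2 and 3, without all 3 arrays of raised HLA-DRA, the log2 change of that probe set was 0.43 (adjusted p = 0.302, with a single urolithin A array assumed to vary like the controls), and that of the AKR1C3 mean was 0.19 (adjusted p = 0.531). Without only urolithin A replicate 3 and control replicate 1, the changes were 0.71 (adjusted p = 0.114) for the probe set and 0.34 (adjusted p = 0.203) for the mean. The arrays left out include urolithin A replicates 2 and 3, the highest on that probe set, and control replicate 1, the lowest control. On this probe set, raised HLA-DRA and these outlying values lie on the same arrays and cannot be told apart. Fewer arrays also cost calls everywhere: without urolithin A replicate 3 and control replicate 1, 705 genes were called, against 1854 with all arrays. These fits therefore cannot show the part of immune transcripts in the rise, which was not tested.

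**Figure D2:**
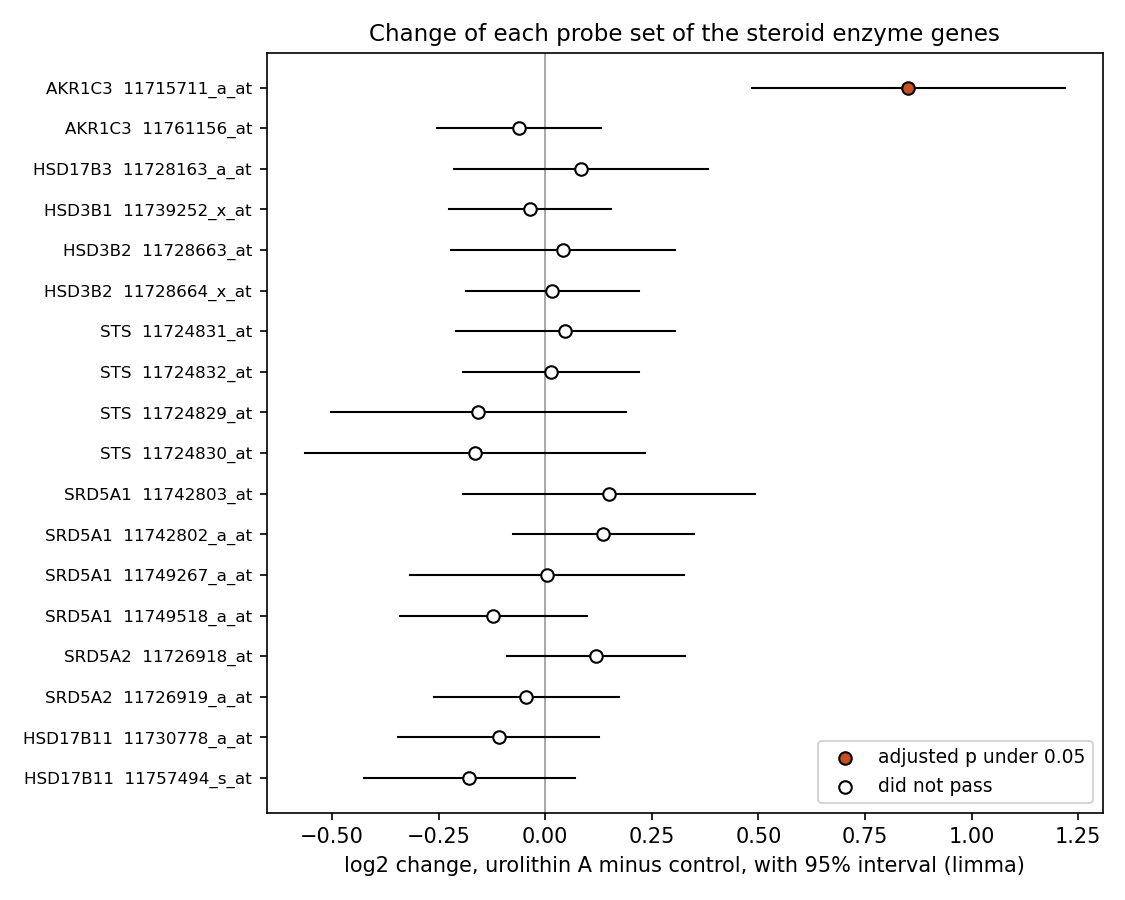
Log2 change between urolithin A and control arrays (horizontal axis) of each of the 18 probe sets of the steroid enzyme genes, with its 95% interval from limma; a filled point marks an adjusted p under 0.05. Only the upper probe set of AKR1C3, at 0.85, is filled, and the intervals of the other 17 include 0.

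AKR1C3 lies on chromosome 10 beside AKR1C1, AKR1C2 and AKR1C4, close copies that reduce other steroid ketones. AKR1C2 inactivates dihydrotestosterone, AKR1C1 inactivates progesterone, and AKR1C4 is known chiefly from liver. Because their transcripts are alike, a probe set listed for one gene may also detect another. The 250 bases before each RefSeq transcription start (GRCh38.p14) are shown because a probe set of AKR1C3, one of AKR1C2 and one listed for both AKR1C1 and AKR1C2 rose. Capitals mark the CCAAT box, searched as CCAAT on both strands (here read as ATTGG).
AKR1C3, outer start, chr10:5048531-5048780 (+ strand): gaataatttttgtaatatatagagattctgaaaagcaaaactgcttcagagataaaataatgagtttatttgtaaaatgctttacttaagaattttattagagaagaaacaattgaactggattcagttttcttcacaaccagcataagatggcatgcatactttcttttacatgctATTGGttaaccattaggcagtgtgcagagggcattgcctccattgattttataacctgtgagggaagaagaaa
AKR1C3, inner start, chr10:5094164-5094413 (+ strand): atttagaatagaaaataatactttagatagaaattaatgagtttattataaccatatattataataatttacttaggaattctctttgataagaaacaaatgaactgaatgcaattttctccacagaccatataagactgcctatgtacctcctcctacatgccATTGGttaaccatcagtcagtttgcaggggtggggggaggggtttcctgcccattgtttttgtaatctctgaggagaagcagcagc
AKR1C1 chr10:4963165-4963414 (+ strand): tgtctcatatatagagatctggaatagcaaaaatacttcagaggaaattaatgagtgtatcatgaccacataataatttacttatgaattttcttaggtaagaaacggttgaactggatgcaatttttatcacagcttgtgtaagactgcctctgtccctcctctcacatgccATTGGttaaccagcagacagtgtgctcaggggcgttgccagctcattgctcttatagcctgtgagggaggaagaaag
AKR1C2 chr10:5003858-5004107 (- strand): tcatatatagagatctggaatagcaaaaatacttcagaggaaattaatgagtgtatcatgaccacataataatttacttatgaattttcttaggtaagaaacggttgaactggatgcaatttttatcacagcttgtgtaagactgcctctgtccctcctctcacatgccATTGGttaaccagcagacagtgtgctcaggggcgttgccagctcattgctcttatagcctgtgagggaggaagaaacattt
AKR1C4 chr10:5196587-5196836 (+ strand): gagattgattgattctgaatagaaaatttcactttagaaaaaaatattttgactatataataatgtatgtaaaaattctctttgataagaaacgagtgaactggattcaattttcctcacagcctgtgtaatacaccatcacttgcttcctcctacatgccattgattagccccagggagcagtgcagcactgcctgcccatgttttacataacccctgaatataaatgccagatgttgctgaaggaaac
The windows of AKR1C1 and AKR1C2 were 96.5% identical over their alignment, whereas the outer AKR1C3 window shared 71.4% with AKR1C1 and 69.6% with AKR1C2. A CCAAT box stood 73 and 86 bases before the outer and the inner AKR1C3 start, 77 before that of AKR1C1 and 81 before that of AKR1C2, and the AKR1C4 window held none. Over 35116 windows of the same length, 32.0% held one. None of these 5 windows held the antioxidant response element core TGACNNNGC (10.9% of all windows), the xenobiotic response element core GCGTG (32.2%) or the androgen response element half-site AGAACA (12.4%), all searched on both strands. Such a match or its lack describes these letters in this window only.

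Besides AKR1C3, a probe set of AKR1C2 and a probe set listed for both AKR1C1 and AKR1C2 rose. The AKR1C2 probe set read 0.52, 0.83 and 1.31 on the urolithin A arrays and 0.00, 0.09 and -0.27 on the control arrays (log2 change 0.94, SE 0.19, limma adjusted p = 0.0185). The shared probe set read 0.46, 1.03 and 1.47 on the urolithin A arrays and -0.10, 0.11 and 0.00 on the control arrays. Fitted with every probe set that has a symbol, its log2 change was 0.98 (SE 0.22, adjusted p = 0.0280). In both, the urolithin A arrays all stood above the controls, in the order of HLA-DRA on those arrays. The controls did not keep that order: control replicate 1, with HLA-DRA at 1.01, read 0.00 and -0.10. A link to HLA-DRA was not tested. With each array left out, the AKR1C2 probe set lost its call in 3 of 6 fits (log2 change between 0.73 and 1.13, adjusted p up to 0.0610). The shared probe set lost its call in 4 of 6 fits (log2 change between 0.74 and 1.24, adjusted p up to 0.0886). Neither probe set passed without moderation or at the threshold of 0.01. Set against control replicates 2 and 3, urolithin A replicate 1 alone gave changes of 0.60 (adjusted p = 0.244) and 0.40 (adjusted p = 0.291).

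Over the 6 arrays, the AKR1C3 probe set that rose correlated with the AKR1C2 probe set at Pearson r = 0.83 and with the shared one at r = 0.90, a description of 6 arrays that the treatment also separates. Of the 10 probe sets listed for a single AKR1C gene, 2 passed, both higher, against 8.51% of all probe sets called and 4.06% called higher. These 2 belong to AKR1C3 and AKR1C2, and neither of the 2 AKR1C1 probe sets passed. The other 8 had log2 changes between -0.21 and 0.26. Within AKR1C2, 4 of 5 probe sets did not pass, and 1 of them lay below the controls on all 3 urolithin A arrays (log2 change -0.21, adjusted p = 0.180). The gene means of AKR1C2 and AKR1C1, at log2 changes of 0.21 (adjusted p = 0.160) and 0.23 (adjusted p = 0.245), did not pass. The single AKR1C4 probe set had a log2 change of -0.04 (adjusted p = 0.750 at the gene level).

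**Figure D3:**
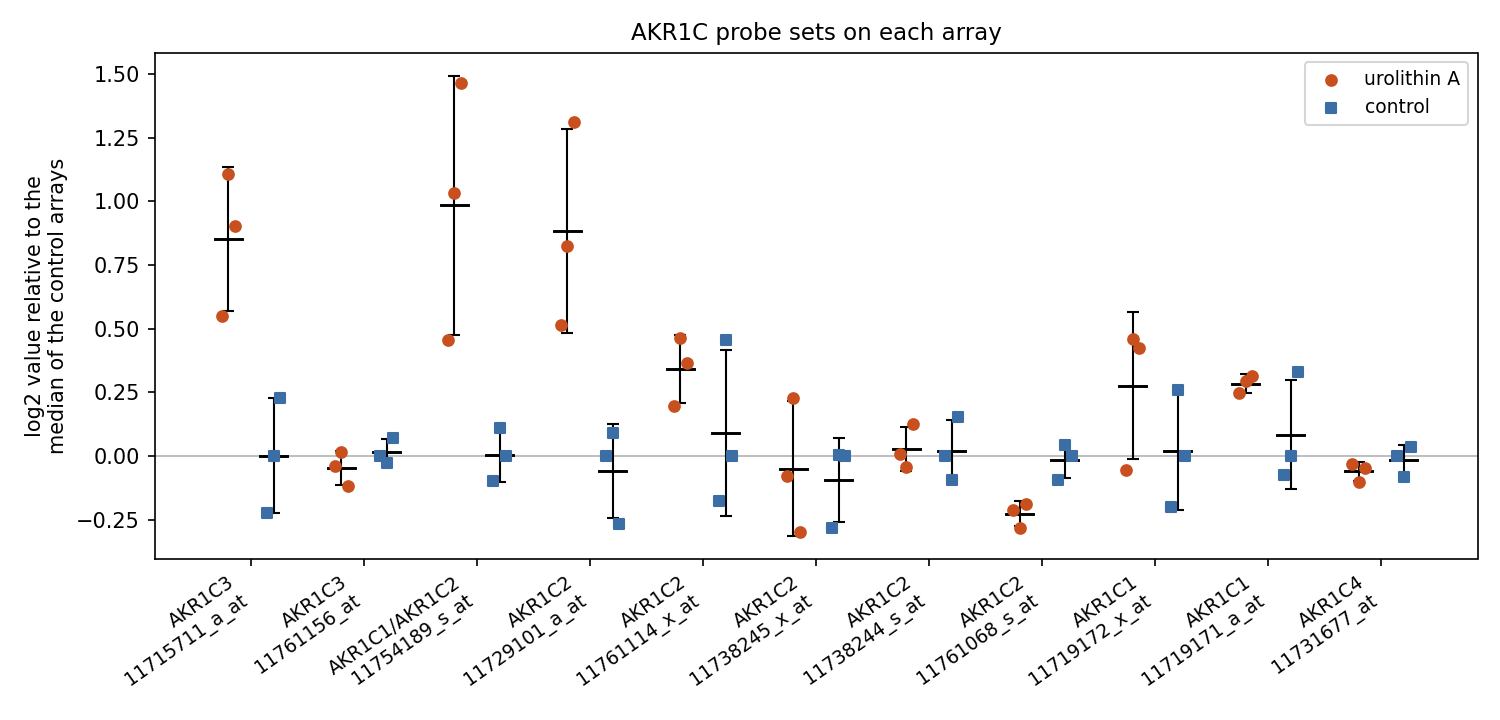
Every probe set listed for AKR1C3, AKR1C2, AKR1C1 or AKR1C4 on each array, as centred log2 value (vertical axis), with urolithin A arrays as circles and control arrays as squares; bars are means and whiskers SD (n = 3 each). In the first probe set of AKR1C3, the one shared by AKR1C1 and AKR1C2 and the first of AKR1C2, the urolithin A arrays, at 0.46 to 1.47, lie above every control, while most other probe sets overlap.

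The remaining steps toward androstenedione and testosterone did not pass. HSD17B3, the testis enzyme that makes testosterone, read 0.16, -0.16 and 0.30 on the urolithin A arrays and -0.10, 0.16 and 0.00 on the control arrays (log2 change 0.08, 95% interval -0.19 to 0.36, limma adjusted p = 0.746). Its urolithin A arrays spread on both sides of the controls. HSD3B1, the form of prostate, placenta and skin, read -0.04, -0.03 and -0.08 on the urolithin A arrays and 0.00, -0.10 and 0.05 on the control arrays (log2 change -0.03, 95% interval -0.19 to 0.12, adjusted p = 0.817). HSD3B2, the adrenal and gonadal form, read 0.09, 0.11 and -0.04 on the urolithin A arrays and -0.05, 0.07 and 0.05 on the control arrays (log2 change 0.03, 95% interval -0.14 to 0.19, adjusted p = 0.864). The groups overlap in both, and since the genes are close copies, their probe sets may share signal.

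STS, the sulfatase, did not pass either. As the mean of 4 probe sets it read 0.04, -0.01 and -0.30 on the urolithin A arrays and -0.12, 0.06 and -0.01 on the control arrays (log2 change -0.07, 95% interval -0.29 to 0.16, adjusted p = 0.761). Urolithin A replicate 3 set the sign, and without that array the change was 0.04 (adjusted p = 0.840). On 1 probe set that array read -0.62, against 0.05 and -0.01 on the other urolithin A arrays and 0.00, 0.11 and -0.20 on the control arrays. Of the 4 STS probe sets 2 were above and 2 below 0, none called.

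Neither reductase that makes dihydrotestosterone passed. SRD5A1, the form that predominates in prostate cancer, read -0.08, 0.22 and -0.04 on the urolithin A arrays and -0.07, 0.07 and -0.02 on the control arrays (log2 change 0.04, 95% interval -0.17 to 0.25, adjusted p = 0.844). Without urolithin A replicate 2, its high array, the change was -0.05. Its 4 probe sets ran between -0.12 and 0.15. SRD5A2, the form of the normal prostate, read 0.03, 0.00 and 0.06 on the urolithin A arrays and 0.00, 0.02 and -0.04 on the control arrays (log2 change 0.04, 95% interval -0.10 to 0.18, adjusted p = 0.781). Its probe sets differed in sign, at 0.12 and -0.04.

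Of the enzymes that oxidise androgens, HSD17B11, a lipid droplet protein, had the largest change among the genes that did not pass. It read -0.17, -0.14 and -0.01 on the urolithin A arrays and 0.00, -0.03 and 0.13 on the control arrays, with an overlap at urolithin A replicate 3. The log2 change was -0.14 (SE 0.08, 95% interval -0.32 to 0.03, adjusted p = 0.300), and both probe sets were below 0, at -0.11 and -0.18. The probe set shared by HSD17B6 and RDH16 read -0.06, 0.24 and 0.00 on the urolithin A arrays and 0.24, -0.01 and 0.00 on the control arrays (log2 change -0.02, SE 0.11, adjusted p = 0.955), which cannot be assigned to either gene.

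Across the 7 genes that did not pass, the 95% intervals of the gene means together reached from -0.32 to 0.36 on the log2 scale. A fall of more than 1.25-fold or a rise of more than 1.29-fold thus lay outside each of these intervals. Each gene's own interval was narrower than that joint range, and those of SRD5A2 and HSD3B1 were the narrowest. These bounds do not hold for single probe sets. Their intervals reached down to -0.56 for 1 probe set of STS and up to 0.49 for 1 of SRD5A1. Enzyme activity was not measured.

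The wider pathway was read from 6 lists that hold 68 measured genes, and 2 of these, or 2.94%, passed at the gene level, against 10.2% of all genes. Both were lower. CYB5A, the cytochrome b5 that aids the step of CYP17A1 toward dehydroepiandrosterone, read -0.33, -0.24 and -0.26 on the urolithin A arrays and -0.05, -0.01 and 0.08 on the control arrays (log2 change -0.28, SE 0.07, limma adjusted p = 0.0321). All 4 of its probe sets were below 0, although none passed alone. The call was lost in each fit that left out 1 array, with a log2 change between -0.31 and -0.25 (adjusted p between 0.0577 and 0.0991). HSD17B4, a peroxisomal enzyme that inactivates estradiol and shortens fatty acids, read -0.41, -0.36 and -0.31 on the urolithin A arrays and -0.07, 0.01 and 0.01 on the control arrays (log2 change -0.34, SE 0.06, adjusted p = 0.0138). Of its 3 probe sets 2 passed, both lower, and the gene call was lost without control replicate 2 (log2 change -0.33, adjusted p = 0.0538). Without urolithin A replicate 3 and control replicate 1, HSD17B4 had a log2 change of -0.39 (adjusted p = 0.0559) and CYB5A one of -0.32 (adjusted p = 0.109). Without all 3 arrays of raised HLA-DRA, the change was -0.42 (adjusted p = 0.163) for HSD17B4 and -0.36 (adjusted p = 0.218) for CYB5A, so neither passed in these fits while both changes were at least as large as with all arrays.

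By list, 1 of 11 genes of steroid synthesis from cholesterol was lower (CYB5A; median log2 change 0.03) and 1 of 20 other hydroxysteroid dehydrogenases and ketosteroid reductases (HSD17B4; median -0.04). Of 12 genes of steroid sulfation, sulfatase activation and steroid sulfate uptake (median 0.02), 7 steroid hydroxylases and aromatase (median 0.00), 12 genes of dolichol synthesis, the pathway SRD5A3 serves (median 0.06), and 6 steroid receptors (median 0.03), none passed limma's test. At an unadjusted p under 0.05 these 4 lists held 0, 1, 2 and 2 genes, and 24.1% of all genes reached it. The lists of CYB5A and HSD17B4 held 3 of 11 and 5 of 20 such genes, and all lists together 13 of 68. HSD17B7, which acts on estrone and in cholesterol synthesis, and HSD11B2, which inactivates cortisol, had log2 changes of 0.38 (adjusted p = 0.0776) and -0.38 (adjusted p = 0.0556) that did not pass. Neither overlapped its controls, as was the case for 15 of the 68 list genes and 29.3% of all genes.

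**Figure D4:**
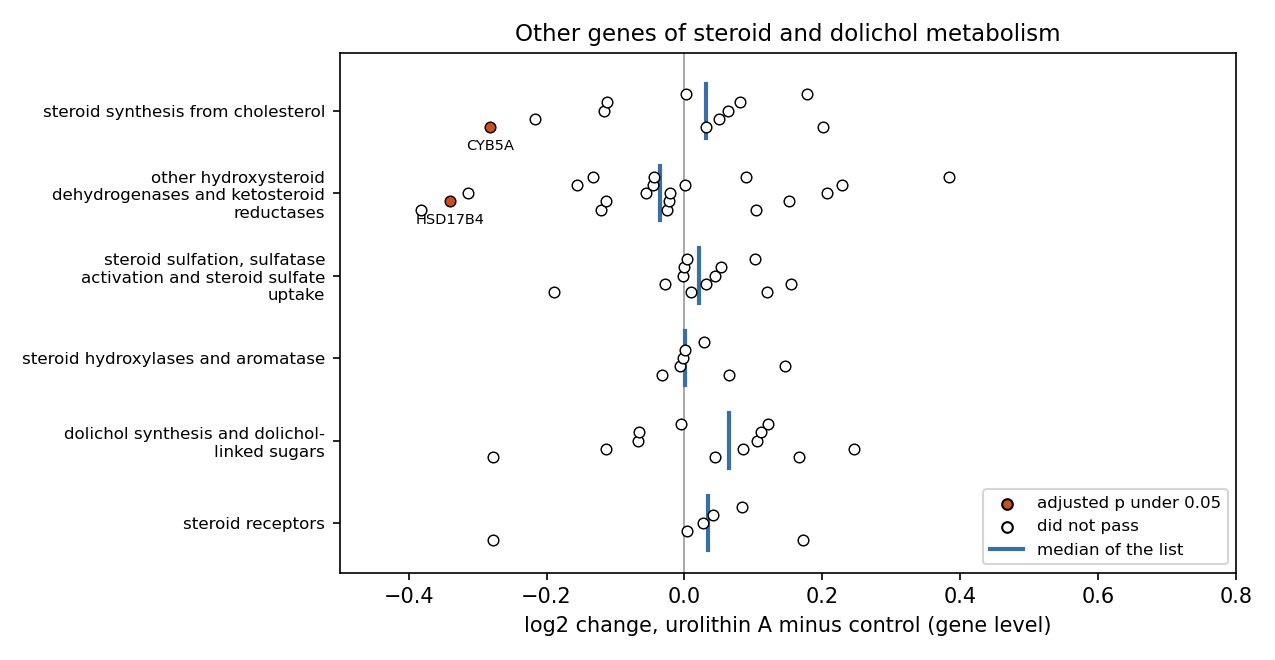
Log2 change between urolithin A and control arrays (horizontal axis) of 68 genes in 6 lists around the steroid enzymes; each point is a gene, a filled point passed at an adjusted p under 0.05 and a vertical bar is the median of the list. CYB5A at -0.28 and HSD17B4 at -0.34 are the filled points, and the medians lie between -0.04 and 0.06.

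The genes whose pattern over the 6 arrays was most like that of the AKR1C3 mean were TRBV9 (Pearson r = 0.998, log2 change 0.18, adjusted p = 0.158) and UROD, a heme synthesis enzyme (r = 0.995, log2 change 0.19, adjusted p = 0.131). Neither passed the test, and 93 genes had an r over 0.95 with it over these 6 arrays.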

How the data were processed

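Total RNA of LNCaP cells was measured on 6 arrays, 3 per group, grouped by sample title. Per the submitters' processing notes the authors used RMA, and the deposited values of 49386 probe sets are taken as log2 values. In 100% of probe sets the control median was exactly 0, so it had been subtracted, which removes levels. A filter on low signal was therefore not possible. Base 2 was taken from RMA. No batch is named, and no arrays were identical.

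Symbols came from the platform annotation: 45253 probe sets had 1 symbol, 1327 several and 2713 none, and 93 were controls. A gene's value was the mean of its single-symbol probe sets. Treatment was the only term of the fits to genes and to probe sets (lmFit and eBayes of limma 3.58.1, R 4.3.3), with Benjamini-Hochberg adjustment over all of them and a threshold of 0.05. The fit was tested on simulated data. Members and lists were chosen with earlier results of these data known. Named were all members, list genes that passed, and the 2 genes most like a member that passed. AKR1C probe sets, HSD17B7 and HSD11B2, motifs and promoter windows were chosen after values were seen. Promoters are from RefSeq, GRCh38.p14, matched by symbol for 9 of 10 members, and aligned with Biopython 1.88. Alternatives were a replicate block, each probe set alone, the median of probe sets, no _s_at or _x_at probe sets, median centring, a trended robust prior, array weights, no moderation, a threshold of 0.01 and each array left out; fits without arrays of raised HLA-DRA were added after seeing the data.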

Additional observations from a re-analysis of the deposited data

How the results depend on the processing

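The 3 arrays a group limit the precision. Arrays of the same replicate number had correlations of deviations of 0.08, 0.02 and 0.20. These values do not settle whether the arrays were paired, and the labels do not say. With the replicate number as a block, 1 list gene was higher (HSD17B7) and 4 lower (CYB5A, HSD11B2, HSD17B2 and HSD17B4), against 0 and 2 without it. AKR1C3 kept its call.

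The AKR1C3 mean kept its log2 change of 0.39 but lost its call with a trended and robust prior (adjusted p = 0.0648), without moderation (adjusted p = 0.177) and at the threshold of 0.01, so that 0 genes of the set were called there; 0 were also called without the arrays of raised HLA-DRA, where the change was 0.34 and 0.19. It was -0.061 with the lower probe set alone, and between 0.32 and 0.47 with each array left out, with 0 to 1 genes called higher and 0 lower. The AKR1C3 probe set that rose stayed at 0.85 with an adjusted p of 0.143 without moderation and missed the threshold of 0.01; it was 0.71 and 0.43 without the arrays of raised HLA-DRA and between 0.72 and 1.00 with each array left out.

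The number of genes changed was 560 without moderation, 642 at the threshold of 0.01, 705 and 48 without the arrays of raised HLA-DRA, and between 1063 and 1309 with each array left out, against 1854. List genes called higher were 3 without the _s_at and _x_at probe sets (NUS1 at 0.54, FDX1 at 0.53 and AKR1C2 at 0.94). With each probe set alone, 4 (NUS1, ALG2, FDX1 and AKR1C2) were called higher. Those called lower were 1 under either of these, 1 with a trended prior, 1 without moderation and 0 at the threshold of 0.01. Without urolithin A replicate 3 and control replicate 1, 1 was called lower (HSD17B2, at -0.50, limma adjusted p = 0.0403), which was not called with all arrays. With each array left out, 0 to 1 list genes were higher and 1 to 2 lower.

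Signs turned, with no call on either side, for HSD17B3 (-0.075 without urolithin A replicate 3 and control replicate 1; -0.016 to 0.22 with each array left out), HSD3B2 (-0.0094 to 0.077 likewise), SRD5A1 (-0.053 to 0.099 likewise; -0.10 without the 3 arrays of raised HLA-DRA; -0.12 in its lowest probe set), SRD5A2 (-0.044 in 1 probe set) and STS (-0.13 to 0.040 with each array left out; 0.016 without the 3 arrays; 0.047 and 0.014 in 2 probe sets). The cause was not tested. HSD3B1 and HSD17B11 kept their sign in every setting that gave them a value. HSD3B1 had none without the _s_at and _x_at probe sets, since its single probe set is an _x_at. The planned filter on low signal was not run, as centred values hold no levels.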
